A study of Homo sapiens with 8 samples.

Results

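A set of 52 genes that carry cells from G2 through mitosis was followed in SW620 cells, an established human colorectal cancer line. The members were named by gene symbol and comprise mitotic cyclins and CDK1, mitotic kinases, kinetochore proteins, kinesins, and factors of the spindle, the spindle checkpoint and cytokinesis. A gene was tested when a probe named for it had a detection p-value, the array's own measure of signal over its negative controls, under 0.05 on at least 2 arrays. That left 51 of the 52 members among 10856 genes tested. ECT2, without a probe named for it in the tables at hand, was not analysed here, and each of the other 51 members was detected on all 8 arrays.

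Total RNA was measured on Illumina bead arrays, 1 array per sample, in 4 groups of 2 arrays. Untreated cells were kept for 24 h with no treatment. Cells of the Y15 group received 4 µM Y15, a compound that inhibits the focal adhesion kinase FAK (gene PTK2), for 24 h, and their control was the untreated group. Cells of the HAS3 siRNA group were transfected with an siRNA against HAS3, a synthase of the matrix polymer hyaluronan, and were compared with cells transfected with a scrambled sequence. Both transfected groups were also taken at 24 h. The labels do not say whether the 2 arrays of a group came from separate cultures, and p-values therefore measure only how far these arrays lie apart, which may be technical. They name no vehicle for the untreated cells, and the untreated cells were not transfected.

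Entry into mitosis is driven by CDK1 bound to cyclin A or cyclin B, which the CDC25 phosphatases activate. Aurora and Polo-like kinases then build the spindle, kinetochores tie chromosomes to microtubules, and the checkpoint holds back the anaphase promoting complex until attachment is complete. Most of these genes are transcribed in a late wave of the cell cycle: the DREAM complex represses them in resting or arrested cells, and B-MYB and FOXM1 activate them in G2, both through a promoter element called CHR (cell cycle genes homology region), often with the CCAAT box that NF-Y binds. In an RNA extract of a whole culture, fewer cells in G2 or mitosis and less RNA per such cell cannot be told apart.

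Promoters are shown for 4 genes that fell with Y15 and 2 that rose, to show where the elements lie in genes called in either direction. RefSeq promoter windows (build GRCh38.p14, 250 bases before to 50 bases after the annotated start) were found for 43 of the 51 genes, 54 windows in all, since some genes have several starts whose windows can overlap. No window was found for BIRC5, UBE2C, TPX2, RACGAP1, TTK, AURKA, FOXM1 and BUB3. The CCNB1 stretch is chr5:69167000-69167149 on the plus strand, that of CENPA is chr2:26785906-26786055 on the plus strand, and that of PRC1 is chr15:90994536-90994685 on the minus strand. KIF18A is read from chr11:28108157-28108306 on the minus strand, INCENP from chr11:62123861-62124010 on the plus strand and ANLN from chr7:36389712-36389861 on the plus strand. Each is the 150 bases up to the base before the start, 5′ to 3′ on the gene's strand, with capitals marking the CHR element TTTGAA, its variant TTTAAA and the box CCAAT, read on either strand (TTCAAA and ATTGG are the reverse forms).
CCNB1: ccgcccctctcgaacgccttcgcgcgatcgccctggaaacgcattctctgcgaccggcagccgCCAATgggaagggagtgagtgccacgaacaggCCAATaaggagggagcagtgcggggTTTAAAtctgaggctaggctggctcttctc
CENPA: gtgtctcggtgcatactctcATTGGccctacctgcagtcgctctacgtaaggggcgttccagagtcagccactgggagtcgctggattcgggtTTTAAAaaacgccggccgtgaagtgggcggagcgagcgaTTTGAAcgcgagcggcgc
PRC1: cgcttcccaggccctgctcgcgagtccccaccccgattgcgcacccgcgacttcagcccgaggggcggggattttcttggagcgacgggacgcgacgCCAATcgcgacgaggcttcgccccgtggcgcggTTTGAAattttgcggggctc
KIF18A: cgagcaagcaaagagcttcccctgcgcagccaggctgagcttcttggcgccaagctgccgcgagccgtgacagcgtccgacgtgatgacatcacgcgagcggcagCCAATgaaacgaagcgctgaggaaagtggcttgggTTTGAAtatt
INCENP: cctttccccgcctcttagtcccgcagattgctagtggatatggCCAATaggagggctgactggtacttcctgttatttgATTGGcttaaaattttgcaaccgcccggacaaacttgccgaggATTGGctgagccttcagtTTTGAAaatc
ANLN: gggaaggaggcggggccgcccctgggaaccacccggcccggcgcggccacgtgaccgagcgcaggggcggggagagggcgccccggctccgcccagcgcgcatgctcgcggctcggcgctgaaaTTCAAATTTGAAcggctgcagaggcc

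The CHR element TTTGAA was present in 34 of the 54 windows (63.0%), against 15.2% of all 35116 RefSeq windows of this length. Its variant TTTAAA was in 16 windows (29.6%, against 12.2%), and CCAAT was in 41 (75.9%, against 34.6%). A CHR element or variant together with a CCAAT box stood in 32 windows (59.3%, against 9.27%). The E2F-like sequences TTTCGCG and TTTGGCG were in fewer of these windows, 3 (5.56%) and 4 (7.41%), against 1.32% and 1.92% of all windows. Counted by gene, a CHR element or variant was found for 11 of 12 members with a window that fell with Y15, 4 of 4 that rose and 23 of 27 that did neither. CCAAT was found for 11, 3 and 22 of them. Over all genes with a window, 27.9% held a CHR element or variant and 39.7% held CCAAT. Most members of each kind thus held a CHR match. These are matches of letters, not sites shown to be bound.

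**Figure D1:**
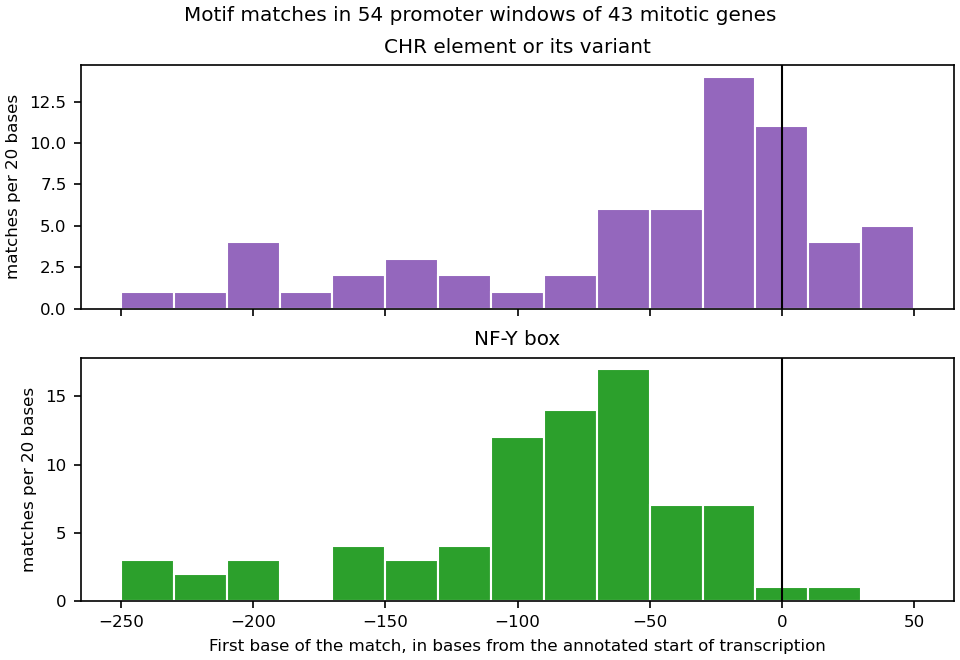
Number of matches per 20 bases (vertical axis) against the position of the match's first base from the annotated start of transcription in bases (horizontal axis, 0 marked by a line), for the CHR element or its variant (upper panel, 63 matches) and the NF-Y box (lower panel, 78 matches), on either strand in 54 windows of 43 genes, with overlapping windows of a gene counted separately. Between -120 and -20 lie 57 of 78 NF-Y boxes and 29 of 63 CHR matches. Between -60 and -1 lie 27 of 78 NF-Y boxes and 29 of 63 CHR matches.

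All 8 arrays carried 24526 probes, with mean intensities of 352.1 to 524.7 except for the array of Y15 replicate 2, at 234.1. Between 12578 and 13916 probes were detected per array. Log2 levels over the genes tested correlated at 0.990 to 0.996 within groups and at 0.948 to 0.986 between groups. Of 10 colon epithelial markers on the array 7 were detected on all 8 arrays, and KRT20 and LGALS4 on none; of 12 markers of blood, endothelium, fibroblasts and liver 1, PECAM1, was detected on all 8 arrays, and PTPRC, CD3D, CDH5, COL3A1 and APOB on none. The log2 of the summed level of the 12 markers of other cells was 8.44 to 8.53 in untreated cells, 8.48 to 8.60 with Y15, 8.46 to 8.48 with the scrambled sequence and 8.31 to 8.33 with HAS3 siRNA. Of the 6 that were tested VWF (0.58) and CD14 (0.42) rose and ALB fell with Y15, LUM (0.89) rose and ALB and CD14 fell in scrambled minus untreated, LUM (-0.57) fell in HAS3 siRNA minus scrambled, and ALB, VWF and CD14 (-0.41) fell in HAS3 siRNA minus untreated. Where no value is given the lower group was not well above background, and the fall is a bound, the higher mean against the lowest detected level or the dim probe's own level per array: ALB was at least 1.22-fold lower with Y15, 1.17-fold with the scrambled sequence and 1.27-fold with HAS3 siRNA, CD14 at least 1.28-fold with the scrambled sequence and VWF at least 1.33-fold with HAS3 siRNA. The part of these markers in the results below was not tested. Of the colon markers CDX2 (-2.14), VIL1 (-0.65) and KRT8 (-0.46) fell with Y15, and CDH1 (-1.80) and CDX2 (-1.07) fell in HAS3 siRNA minus scrambled. In scrambled minus untreated VIL1 (0.53) rose and CDH1 (-0.44) fell, and in HAS3 siRNA minus untreated VIL1 (0.56), KRT18 (0.44) and CDH17 (at least 1.20-fold, not well above background in untreated cells) rose and CDH1 (-2.24) and CDX2 (-1.48) fell. HAS3 stood at log2 levels of 10.05 and 9.73 with its siRNA and at 10.49 and 10.16 with the scrambled sequence. That difference of -0.43 ± 0.17 (SE) did not pass the test (limma adjusted p = 0.151), and HAS3 in untreated cells stood at 9.32 and 9.50, 0.91 below scrambled (adjusted p = 0.00329). PTK2 did not pass in any comparison, and Y15 acts on its protein.

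Levels below are background-corrected, quantile-normalized log2 intensities of the brightest probe of each gene, and a change is a difference of group means on the log2 scale with its standard error, n = 2 arrays per group. All groups share 1 estimate of spread in limma, and a gene is said to have risen or fallen when its two-sided p-value, adjusted by Benjamini-Hochberg over the 10856 genes, was under 0.05. Levels of different genes come from different probes and are not compared with each other.

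**Figure D2:**
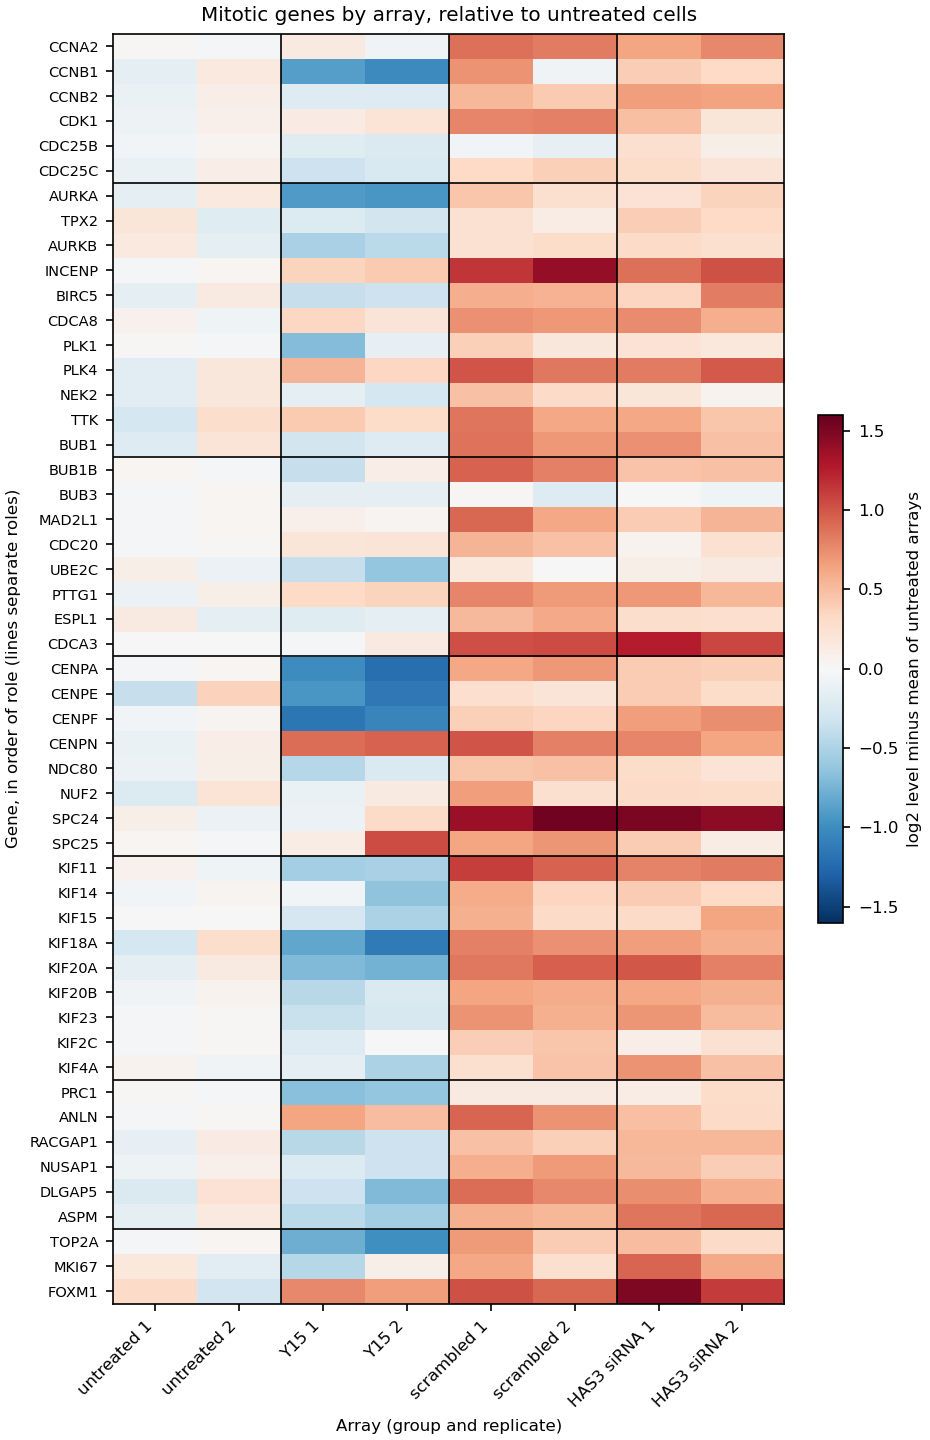
Heat map of the 51 genes (rows, in order of role, with lines between roles) on each of the 8 arrays (columns), coloured by log2 level minus the mean of the untreated arrays (red above, blue below). The columns of scrambled and HAS3 siRNA are red for nearly every gene, while the Y15 columns hold both blue rows such as CENPA and CENPF and red rows such as CENPN and FOXM1.

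The comparison of Y15 with untreated cells asks which mitotic genes differed in cells given Y15. Of the 51 members 15 fell (29.4%) and 5 rose (9.80%), where 23.0% of all genes tested fell and 18.8% rose. The genes that fell included cyclin B1, both Aurora kinases, the kinetochore genes CENPA, CENPE and CENPF, 3 kinesins, 4 genes of the spindle midzone and poles, UBE2C, and topoisomerase II alpha. CENPN, FOXM1, ANLN, PLK4 and INCENP rose. The median change of the members was -0.26, against -0.03 over all genes, and 35 of 51 members lay below 0. By the looser measure of groups that do not overlap, both Y15 arrays lay below both untreated arrays for 30 members (58.8%) and above them for 12 (23.5%), against 36.7% and 31.1% of all genes.

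Among the cyclins, CDK1 and its phosphatases 1 of 6 genes fell and none rose. CCNB1, the mitotic cyclin that activates CDK1, stood at 9.11 and 9.42 in untreated cells and at 8.38 and 8.24 with Y15. Both Y15 arrays lay below both untreated arrays. CCNB1 fell by 0.95 ± 0.22 on the log2 scale (1.94-fold, limma adjusted p = 0.00412). CDK1, its kinase partner, stood at 10.59 and 10.75 in untreated cells and at 10.80 and 10.89 with Y15, a difference of 0.17 ± 0.14 that did not pass (limma adjusted p = 0.368). CCNA2, the cyclin of S and G2 phase, had overlapping groups, with a difference of 0.05 ± 0.14. CCNB2, CDC25B and CDC25C had differences of -0.21, -0.21 and -0.29, and none passed.

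Of the 11 mitotic kinases and chromosomal passenger genes 2 fell and 2 rose. AURKA, the kinase of centrosomes and spindle poles, was at 10.58 and 10.90 in untreated cells and at 9.84 and 9.81 with Y15. Its Y15 arrays lay below both untreated arrays, and AURKA fell by 0.92 ± 0.15 (1.89-fold, limma adjusted p = 0.000503). AURKB, the kinase of the chromosomal passenger complex, was at 11.33 and 11.00 in untreated cells and at 10.65 and 10.73 with Y15, and fell by 0.48 ± 0.14 (adjusted p = 0.0194). INCENP, the scaffold of the same complex, moved the other way, from 6.91 and 6.98 to 7.30 and 7.37, a rise of 0.39 ± 0.14 (adjusted p = 0.0439). The groups were apart for both genes. BIRC5 (survivin) and CDCA8 (borealin), the other subunits of that complex, differed by -0.35 and 0.27 and did not pass, although another probe of BIRC5 fell by 0.57 (adjusted p = 0.0445).

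PLK4, which starts centriole duplication, rose by 0.44 ± 0.16 (adjusted p = 0.0437), from 7.74 and 8.10 to 8.47 and 8.25. PLK1, the Polo-like kinase of mitotic entry and spindle assembly, stood at 7.28 and 7.25 in untreated cells and at 6.57 and 7.13 with Y15. Its Y15 arrays lay far apart, and the difference of -0.41 ± 0.18 did not pass (adjusted p = 0.0816). TPX2, an activator of AURKA, NEK2, a centrosome kinase, TTK (MPS1), the kinase that starts the checkpoint, and BUB1, a checkpoint kinase at kinetochores, differed by between -0.26 and 0.36, and none passed.

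In the spindle checkpoint and the anaphase promoting complex 1 of 8 genes fell. UBE2C, the ubiquitin-conjugating enzyme of that complex, fell by 0.49 ± 0.15 (adjusted p = 0.0168), from 12.38 and 12.19 to 11.91 and 11.68. Another probe of UBE2C gave -0.06 and did not pass, so this fall rests on 1 of 2 probes. The checkpoint proteins BUB1B (BUBR1), BUB3 and MAD2L1 (MAD2) differed by -0.13, -0.15 and 0.07. CDC20, the activator that the checkpoint restrains, differed by 0.20, PTTG1 (securin) by 0.34, ESPL1 (separase) by -0.17 and CDCA3, which takes part in mitotic entry, by 0.05. None of these 7 passed.

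The centromere and kinetochore genes split, with 3 of 8 falling and 1 rising. CENPA, the histone variant that marks centromeres, stood at 9.24 and 9.29 in untreated cells and at 8.26 and 8.06 with Y15. CENPF, a kinetochore protein of the outer corona, went from 9.20 and 9.29 to 8.09 and 8.19. Both Y15 arrays lay about 1 log2 unit below both untreated arrays for both genes. CENPA fell by 1.11 ± 0.13 (2.15-fold, adjusted p = 6.12e-05), and CENPF by 1.11 ± 0.13 (2.15-fold, adjusted p = 4.97e-05). CENPE, a kinesin of the kinetochore, was at 5.76 and 6.49 in untreated cells and at 5.19 and 4.99 with Y15, and fell by 1.04 ± 0.20 (adjusted p = 0.00161); its untreated arrays were the most spread of these 3 genes. With CENPA and CENPF it made up the 3 members that fell at least 2-fold (5.88%, against 5.30% of all genes). The Y15 levels of CENPE lay near the lowest detected levels of those arrays, 4.79 and 4.93. Its change ranged from -1.37 to -0.56 over the processing alternatives and the arrays left out. It passed in 10 of 11 processing alternatives.

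CENPN, which reads the CENPA nucleosome and recruits the inner kinetochore, rose by 0.92 ± 0.14 (1.89-fold, adjusted p = 0.000358), from 10.56 and 10.77 to 11.55 and 11.61. Both Y15 arrays lay above both untreated arrays, the opposite of CENPA. The 4 subunits of the NDC80 complex, which binds microtubules, did not pass: NDC80 differed by -0.34, NUF2 by 0.02, SPC24 by 0.11 and SPC25 by 0.58. SPC25 stood at 5.08 and 6.01 on the Y15 arrays, the widest gap within a group of these 4 genes, against 5.0 and 4.93 in untreated cells.

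All 9 kinesins had differences below 0, from -0.98 to -0.11, and 3 of them fell. KIF18A, which limits chromosome oscillation at the metaphase plate, fell by 0.98 ± 0.18 (1.98-fold, adjusted p = 0.00127), from 7.56 and 8.13 to 7.01 and 6.71. KIF20A, a kinesin of the spindle midzone in cytokinesis, fell by 0.73 ± 0.15 (adjusted p = 0.00198), from 8.90 and 9.19 to 8.34 and 8.29. KIF11 (EG5), which separates the spindle poles, fell by 0.53 ± 0.13 (adjusted p = 0.0074), from 9.33 and 9.19 to 8.72 and 8.74. The groups were apart for these 3 genes. The other 6, KIF14, KIF15, KIF20B, KIF23, KIF2C and KIF4A, differed by -0.34, -0.39, -0.34, -0.30, -0.11 and -0.34 and did not pass. Another probe of KIF23 lay at 0.14.

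Of the 6 genes of spindle assembly and cytokinesis that were tested 4 fell and 1 rose. PRC1, the bundler of midzone microtubules, went from 10.60 and 10.56 to 9.91 and 9.96 and fell by 0.65 ± 0.13 (adjusted p = 0.00204). Its arrays lay close together within each group. DLGAP5 (HURP), which stabilises kinetochore fibres, fell by 0.52 ± 0.18 (adjusted p = 0.0395), from 8.95 and 9.43 to 8.86 and 8.48. ASPM, a spindle pole protein, fell by 0.50 ± 0.14 (adjusted p = 0.016), and RACGAP1, the partner of KIF23 in centralspindlin, by 0.39 ± 0.14 (adjusted p = 0.0428). ANLN (anillin), a scaffold of the contractile ring, rose by 0.57 ± 0.14 (adjusted p = 0.00686), from 9.29 and 9.32 to 9.94 and 9.81, so that of the genes of cytokinesis KIF20A, PRC1 and RACGAP1 fell and ANLN rose. NUSAP1, a microtubule-binding spindle protein, differed by -0.27 and did not pass; another probe of it lay at 0.13.

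TOP2A, which untangles sister chromatids, stood at 11.58 and 11.65 in untreated cells and at 10.84 and 10.63 with Y15, and fell by 0.88 ± 0.15 (1.84-fold, adjusted p = 0.000662). MKI67, the proliferation marker that coats mitotic chromosomes, had overlapping groups, 6.25 and 5.91 in untreated cells and 5.63 and 6.17 with Y15, and a difference of -0.18 ± 0.21. FOXM1, the transcription factor that activates many of these genes in G2, rose by 0.72 ± 0.20 (1.64-fold, adjusted p = 0.0117), from 8.96 and 8.35 to 9.42 and 9.32. Both Y15 arrays of FOXM1 lay above both untreated arrays, and another probe of it rose by 0.63 (adjusted p = 0.0359).

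**Figure D3:**
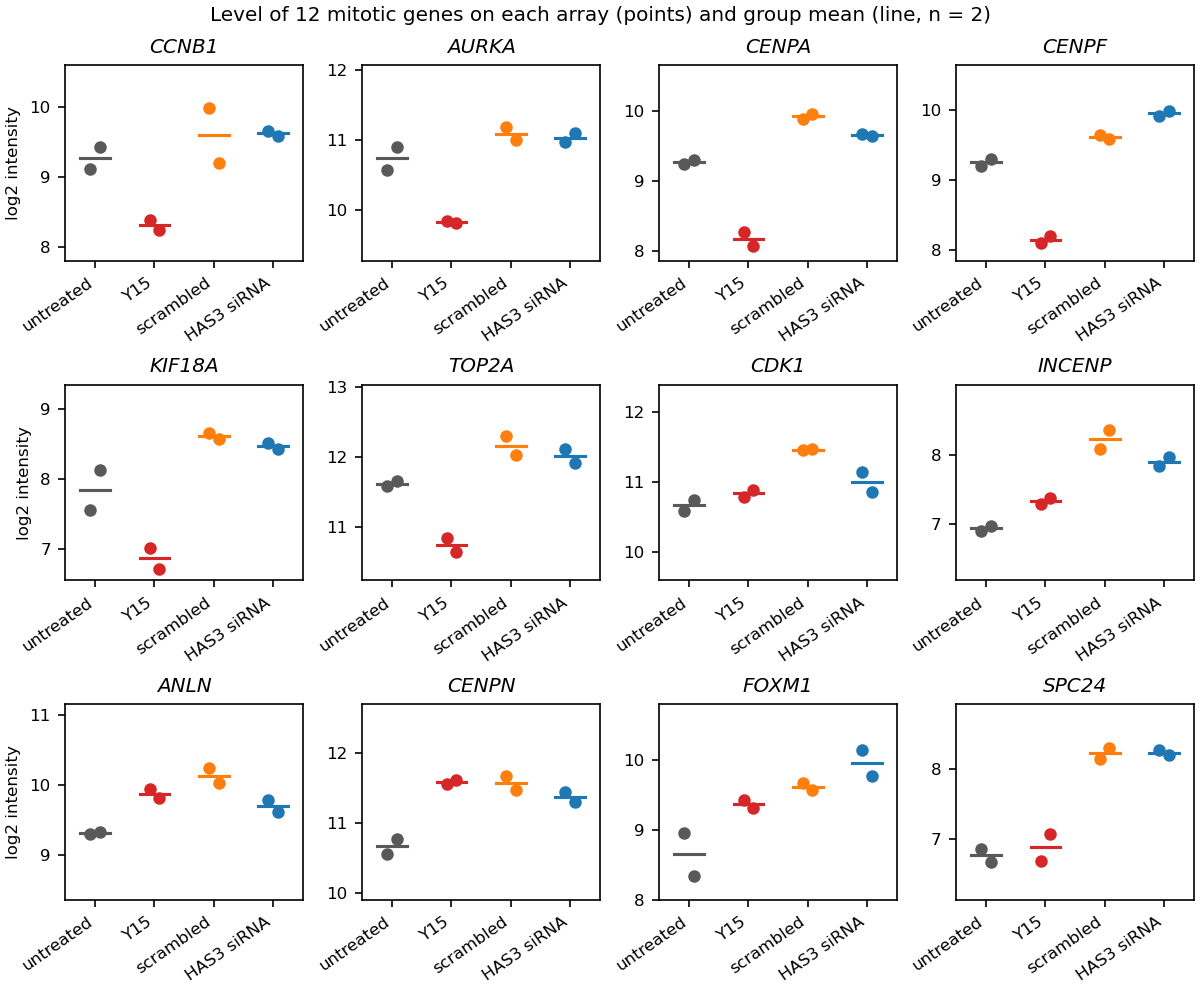
Log2 intensity (vertical axis, the same span in each panel) of 12 genes on each array (points) with the group mean (line, n = 2) in untreated, Y15, scrambled and HAS3 siRNA cells. In CCNB1, AURKA, CENPA, CENPF, KIF18A and TOP2A the Y15 points lie below all other points, and in SPC24 and INCENP the points of both transfected groups lie above all others.

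The falls of CCNB1, AURKA, CENPA, CENPF, KIF11, KIF18A, KIF20A, PRC1 and TOP2A passed in every processing alternative and with every array left out. With each of the 8 arrays left out in turn INCENP passed 0 times, RACGAP1 1 time, DLGAP5 and PLK4 2 times, and AURKB, UBE2C and ASPM 6 times. INCENP and PLK4 also changed sign, to -0.11 and -0.08, and no member rose when arrays were centred on the median of all probes, a setting that moved the median of all genes from -0.03 to -0.31 and the share of rises among all calls from 45% to 12.7% (62.7% when centred on the detected probes). Without the dim array of Y15 replicate 2, 14 members fell and 4 rose; without untreated replicate 1, or without any 1 array of the transfected groups, 3 rose.

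The rest of the mitotic machinery was followed through 7 further gene lists, described by counts and medians beside the 18.8% of all genes that rose and the 23.0% that fell with Y15. Over their 152 genes 21.1% rose and 17.8% fell. Of 23 other spindle and cytokinesis genes 11 fell (47.8%) and 3 rose (13.0%), with a median change of -0.37. PSRC1 (-1.19), HMMR (-1.05) and CLASP1 (-0.75), which bind or stabilise spindle microtubules, fell, and KIF2A, a microtubule depolymerase, rose by 0.93. Of 28 further kinetochore and centromere genes 12 rose (42.9%) and 3 fell (10.7%), with a median of 0.28; the difference between the lists was not tested. CENPL (0.93), the partner of CENPN, CENPO (0.83) and KNL1 (0.89), the scaffold of the checkpoint kinases, rose, while KNTC1 fell by 0.71.

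Genes that control entry into mitosis rose in 6 of 16 cases (37.5%) and fell in 2 (12.5%). CDKN1A, an inhibitor of cyclin-dependent kinases, stood at 5.15 on both untreated arrays and at 7.93 and 8.01 with Y15, and rose by 2.82 (adjusted p = 7.92e-08). SFN (14-3-3 sigma), which holds cyclin B complexes in the cytoplasm, rose by 3.22 (adjusted p = 1.21e-07). CDC25A, a phosphatase that activates CDKs, rose by 1.42, and CCNF, a cyclin that serves as a ubiquitin ligase subunit, fell by 1.01. Of the B-MYB, DREAM and E2F factors 5 of 20 fell, a share near that of all genes, among them the pocket protein gene RBL2 (-1.05) and E2F5 (-0.90), and 2 rose, NFYA (1.01), which encodes a subunit of NF-Y, and the repressor E2F7 (0.94). Among 32 genes of DNA replication and the G1/S transition 6 rose, a share near that of all genes, and 3 fell, with a median of 0.19. Of these CDC6 (0.97), RRM2 (0.62) and GINS3 (0.60) rose. Condensin and cohesin genes had 2 rises (CDCA5 and SMC2) and 2 falls (NCAPD2 and SMC1A) among 16, and the anaphase promoting complex with CDK subunits had 1 of each (ANAPC10 and ANAPC7) among 17.

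**Figure D4:**
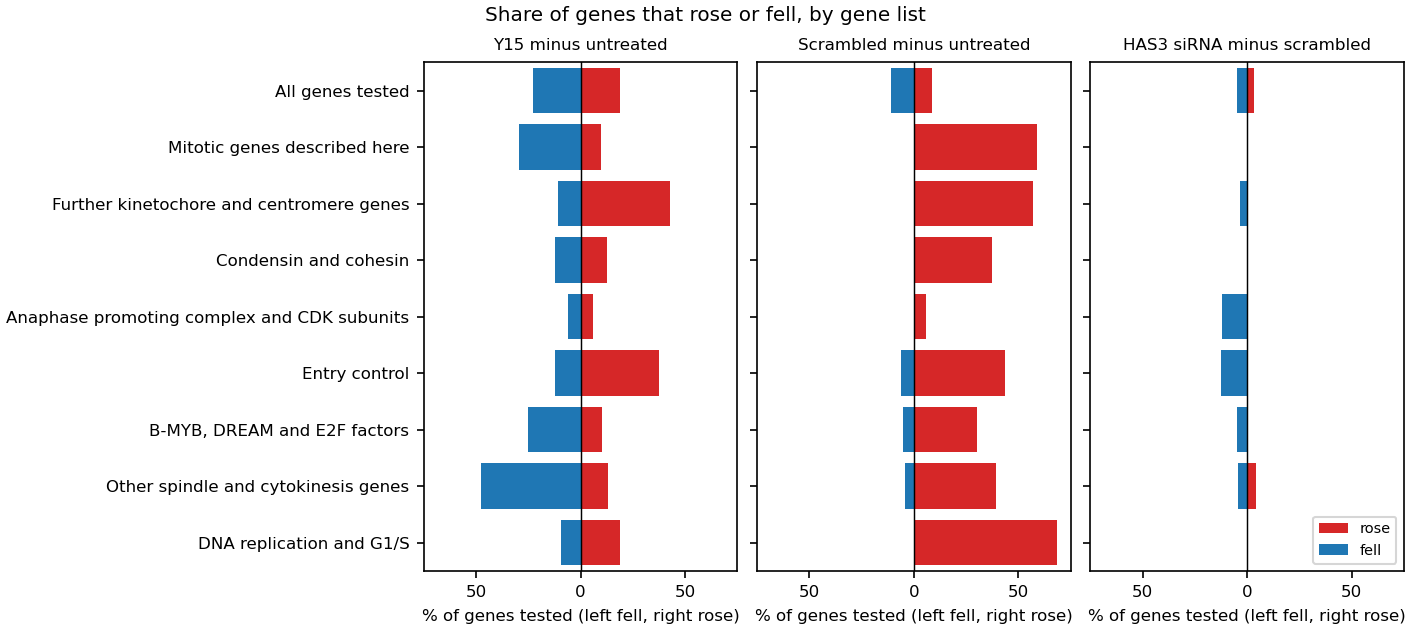
Percentage of genes tested (horizontal axis) that rose (red, to the right of 0) or fell (blue, to the left) by limma's adjusted p-value, for all genes tested, the 51 mitotic genes described here and 7 further lists (vertical axis), in 3 comparisons (panels). In scrambled minus untreated the bars of the mitotic, kinetochore and DNA replication genes reach far to the right (58.8% of the mitotic genes, against 8.84% of all genes), and in HAS3 siRNA minus scrambled the mitotic genes and DNA replication genes have no bar.

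Between the control groups, scrambled minus untreated shows how transfected control cells differed from cells left alone. Of the 51 members 30 rose (58.8%) and none fell, where 8.84% of all genes rose and 10.7% fell. The median change was 0.56, against 0.00 over all genes, and 49 of 51 members lay above 0. Both scrambled arrays lay above both untreated arrays for 45 members (88.2%), against 31.5% of all genes, and below them for 1, CDC25B (1.96%), against 31.4%. At an unadjusted p under 0.05, 41 members were higher (80.4%) and none lower, against 15.8% and 17.3% of all genes. The direction was shared by every role: 3 of 6 cyclin, CDK1 and phosphatase genes rose, 6 of 11 kinase and passenger genes, 6 of 8 checkpoint genes, 4 of 8 kinetochore genes, 5 of 9 kinesins, 4 of 6 spindle and cytokinesis genes and 2 of the last 3.

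The 4 members that rose at least 2-fold (7.84%, against 0.783% of all genes) were SPC24, INCENP, CDCA3 and KIF11. SPC24, of the NDC80 complex, stood at 6.86 and 6.68 in untreated cells and at 8.15 and 8.31 with the scrambled sequence, and rose by 1.46 ± 0.16 (2.75-fold, adjusted p = 0.000169). INCENP rose by 1.27 ± 0.14 (2.41-fold, adjusted p = 0.000188), to 8.08 and 8.35. CDCA3 was at 8.19 on both untreated arrays and at 9.23 on both scrambled arrays, a rise of 1.04 ± 0.14 (adjusted p = 0.000511). KIF11 rose by 1.02 ± 0.13 (adjusted p = 0.000483), from 9.33 and 9.19 to 10.37 and 10.21. For these 4 genes the gap between the groups was wider than that between the arrays of either group.

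FOXM1 rose by 0.96 ± 0.20 (adjusted p = 0.00604), to 9.67 and 9.57, and PLK4 by 0.93 ± 0.16 (adjusted p = 0.00239). CENPN rose by 0.91, KIF20A by 0.90, BUB1B by 0.87, CCNA2 by 0.86, DLGAP5 by 0.83, ANLN by 0.82 and CDK1 by 0.80, the last to 11.46 and 11.48. Smaller rises were those of BUB1 (0.78), KIF18A (0.77), MAD2L1 (0.77), TTK (0.74), PTTG1 (0.73), CDCA8 (0.71), CENPA (0.66), KIF23 (0.64), NUSAP1 (0.63), KIF20B (0.61), BIRC5 (0.57), ESPL1 (0.56), ASPM (0.55), TOP2A (0.54), CDC20 (0.51), CCNB2 (0.48) and NDC80 (0.45).

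The other 21 members did not pass. CCNB1 stood at 9.99 and 9.20 with the scrambled sequence, on either side of an untreated array, and differed by 0.33 ± 0.22. AURKA was at 11.18 and 11.00, a difference of 0.35 (adjusted p = 0.126), although another probe of it rose by 0.54 (adjusted p = 0.0208). AURKB, at 11.41 and 11.46, differed by 0.27, CENPF, at 9.64 and 9.59, by 0.36, PRC1 by 0.14 and UBE2C by 0.09. PLK1, at 7.65 and 7.44, differed by 0.28, and MKI67, at 6.70 and 6.34, by 0.44, and CDC25C, TPX2, NEK2, CENPE, NUF2, SPC25, KIF14, KIF15, KIF2C, KIF4A and RACGAP1 by 0.19 (TPX2) to 0.67 (SPC25). BUB3 and CDC25B lay below 0, at -0.09 and -0.09, yet another probe of BUB3 rose by 0.57 (adjusted p = 0.0125). Further probes also differed in call for NUF2, where another probe rose by 0.60 (adjusted p = 0.0386), and for CENPA, BIRC5 and KIF23, where another probe gave 0.28, 0.19 and 0.29 and did not pass.

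Genes of DNA replication and the G1/S transition rose with the mitotic genes, 22 of 32 with none falling and a median of 0.59. RRM2, a subunit of ribonucleotide reductase, rose by 1.70 and GINS2, of the replicative helicase, by 1.32. Further kinetochore genes rose in 16 of 28 cases with none falling (median 0.60), among them KNL1 by 1.0 and CENPO by 0.99. Condensin and cohesin genes rose in 6 of 16 cases, including SMC2 (0.90) and NCAPG (0.84), and 9 of 23 other spindle genes rose, including SPAG5 (0.83) and CKAP2 (0.90), while NDEL1 fell by 0.49. Entry control held 7 rises of 16 with a fall of CDKN1A (at least 1.18-fold lower, not well above background with the scrambled sequence), B-MYB, DREAM and E2F factors 6 rises of 20, led by LIN52 (1.11), with a fall of RBL2, and the anaphase promoting complex and CDK subunits 1 rise of 17, that of its inhibitor FBXO5 (1.20).

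The number of calls in this comparison depended on how arrays were scaled and on which arrays were used. With 1 array left out the members' median change was 0.49 to 0.65, and the number of calls over all genes changed as well. Centring each array on the median of all its probes left 4 rises, with the members' median at 0.34 and that of all genes at -0.15, and centring on the detected probes left 27; rises made up 45.3% of all genes' calls by quantile normalization, 11.7% and 61.0% by these 2 settings. With 1 array left out there were 13 to 36 rises, 13 without scrambled replicate 1 and 18 without untreated replicate 1, and SPC24, INCENP, CDCA3 and KIF11 passed in every one of these settings.

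**Figure D5:**
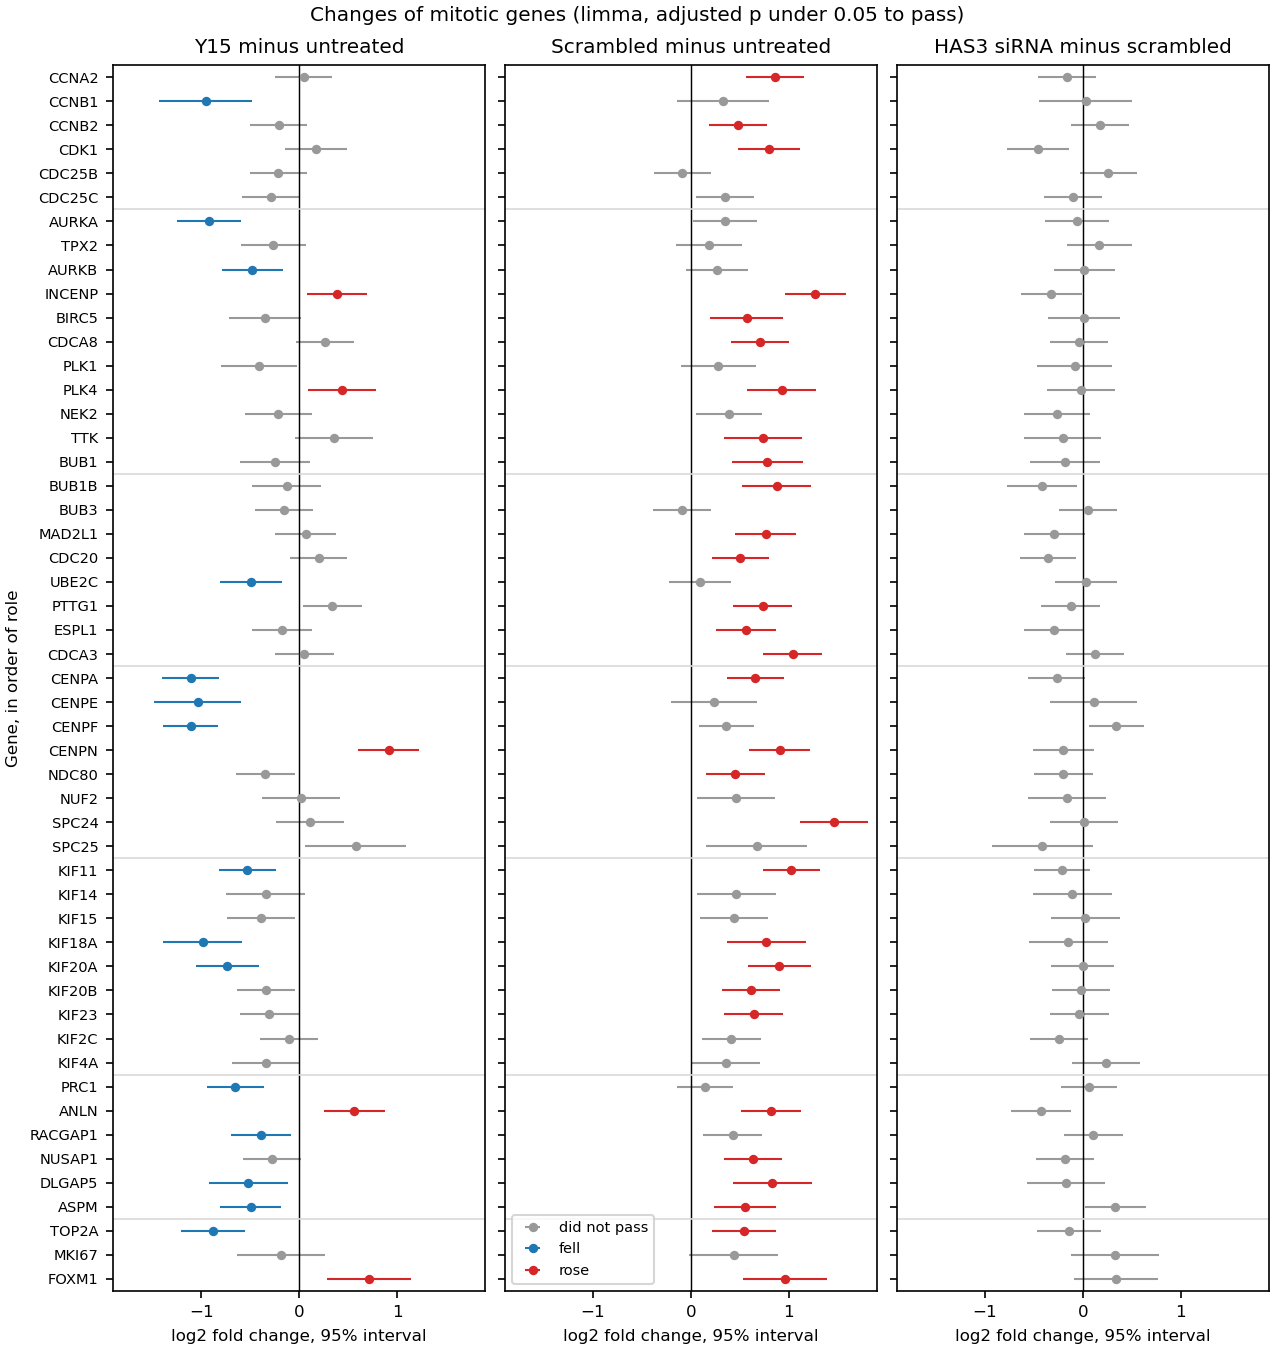
Log2 fold change (horizontal axis) with its 95% interval for the 51 genes (vertical axis, in order of role), n = 2 arrays per group, in Y15 minus untreated, scrambled minus untreated and HAS3 siRNA minus scrambled; red points rose, blue points fell and grey points did not pass. The middle panel lies to the right of 0 for 49 of 51 genes, the left panel holds 15 blue and 5 red points, and the right panel is grey throughout.

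HAS3 siRNA minus scrambled compares cells given the HAS3 siRNA with their transfection control; HAS3 itself did not pass, as given above. None of the 51 members passed, where 3.47% of all genes rose and 4.74% fell. At an unadjusted p under 0.05, 2 members were higher and 5 lower (3.92% and 9.80%, against 10.3% and 11.3% of all genes). The median was -0.08, against 0.01 over all genes, and the groups were apart upwards for 10 members (19.6%) and downwards for 20 (39.2%), against 30% and 27.6% of all genes. No difference exceeded 0.46 in size, and the 95% intervals of the members reached from -0.93 to 0.78.

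CDK1 had the lowest value. It stood at 11.15 and 10.86 with HAS3 siRNA and at 11.46 and 11.48 with the scrambled sequence, a difference of -0.46 ± 0.14 (adjusted p = 0.0763). ANLN, at 9.79 and 9.61 against 10.23 and 10.03, differed by -0.43 ± 0.14 (adjusted p = 0.0873). BUB1B, CDC20 and INCENP, with differences of -0.42, -0.36 and -0.32, made up the 5 lower members. CENPF, at 9.92 and 9.99 against 9.64 and 9.59, had the value furthest above 0, 0.34 ± 0.13 (adjusted p = 0.144), and ASPM differed by 0.33 (adjusted p = 0.202). For these 7 genes the arrays of the 2 groups did not overlap.

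The other genes followed by array had smaller or more spread differences. CCNB1 was at 9.66 and 9.59 with HAS3 siRNA, between the scrambled arrays, and differed by 0.03. AURKA, at 10.97 and 11.10, differed by -0.06, AURKB, at 11.48 and 11.42, by 0.02, and PLK1, at 7.49 and 7.43, by -0.08. CENPA, at 9.67 and 9.65, lay below both scrambled arrays, by -0.27 (adjusted p = 0.274). TOP2A, at 12.11 and 11.92, differed by -0.14, MKI67, at 7.01 and 6.69, by 0.33, and FOXM1, at 10.15 and 9.77, by 0.34, and none of these passed. CDK1 passed as lower in 4 of the alternatives, with a limma adjusted p of 0.0299 to 0.0496, together with ANLN in 1 of them and BUB1B in another. Among these 4, no background correction and the series matrix gave the same values and count as 1 setting. Another probe of CDK1 gave -0.24 and did not pass (adjusted p = 0.419). Rises made up 42.3% of all genes' calls, 62.5% with arrays centred on the median of all probes and 33.1% with the detected probes.

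Over the 152 genes of the 7 further lists 1 rose (0.658%) and 7 fell (4.61%), beside the 3.47% and 4.74% of all genes. The falls included FBXO5 (-1.22), CDC16, CDKN1B (-0.75), GADD45A, SKA3 (-0.76), RB1 and CKAP2, and FAM83D rose by 0.60. All 32 DNA replication genes and all 16 condensin and cohesin genes did not pass.

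The comparison of HAS3 siRNA with untreated cells was chosen once the levels had been seen, because both transfected groups stood high. Here 28 members rose (54.9%) and none fell, against 12.2% and 14% of all genes, with a median of 0.47 (0.01 over all genes) and 50 of 51 members above 0. SPC24 rose by 1.47, FOXM1 by 1.30, CDCA3 by 1.16 and INCENP by 0.95. KIF20A rose by 0.90, PLK4 by 0.90, ASPM by 0.89, KIF11 by 0.81, MKI67 by 0.77 and CENPF by 0.71. CDK1, at 0.34, did not pass (limma adjusted p = 0.11), although another probe of it rose by 0.48 (adjusted p = 0.0369). The untreated arrays are shared with the 2 comparisons above that use them. With 1 array left out the members' median change was 0.42 to 0.53, and the number of calls over all genes changed as well. With 1 array left out 14 to 31 members rose, 14 without HAS3 siRNA replicate 1 and 18 without untreated replicate 1, and centring on the median of all probes left 7 (29.2% of all genes' calls were rises, against 46.5%).

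The effect of Y15 and that of HAS3 siRNA, each against its own control, differed for 16 members when the difference itself was tested over all 8 arrays. For 10 the Y15 effect was the lower (19.6%, against 17.0% of all genes), and for 6 it was the higher (11.8%, against 13.8%). The 5 members with the largest differences were CENPF (-1.45 ± 0.18, adjusted p = 0.000177), CENPE (-1.15 ± 0.29, adjusted p = 0.0104), CENPN (1.12 ± 0.20, adjusted p = 0.00162), ANLN (1.0 ± 0.20, adjusted p = 0.00306) and SPC25 (0.99 ± 0.33, adjusted p = 0.042). In all 5 the effects had opposite signs, though none of the 5 passed with HAS3 siRNA. CENPF fell with Y15 while it lay 0.34 above scrambled with HAS3 siRNA, and ANLN rose with Y15 while it lay 0.43 below. With HAS3 siRNA CENPE differed by 0.11, CENPN by -0.20 and SPC25 by -0.41, against -1.04, 0.92 and 0.58 with Y15. For SPC25 (0.99), CDK1 (0.63) and CDC20 (0.55) neither effect passed by itself and the difference did, but with each of the 8 arrays left out in turn the difference passed 1 time for SPC25, 3 times for CDK1 and 0 times for CDC20. CENPA, CENPF and ASPM passed in every alternative and with every array left out. With 1 array left out 6 to 12 members were lower, 6 without HAS3 siRNA replicate 1, and 2 to 5 higher: 2 without untreated replicate 1 or scrambled replicate 2, and 3 without Y15 replicate 2, either HAS3 siRNA array or scrambled replicate 1. Centring on the median of all probes left none higher and 24 lower (10% of all genes' calls higher, against 44.7%), and on the detected probes 7 and 5 (68.4%).

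Over the 5 comparisons 42 members passed at least once and 9 did not. The share of all genes that passed at least once was not counted, so the 42 are not read as a trait of these genes. In Y15 minus untreated alone 41.8% of all genes passed. The 9 were BUB3, CDC25B, CDC25C, KIF14, KIF2C, NEK2, NUF2, PLK1 and TPX2. For 3 of them this held for the probe used and not for another: in HAS3 siRNA minus untreated another probe of BUB3 rose by 0.57 (adjusted p = 0.00993) and both other probes of CDC25C by 0.56 (adjusted p = 0.0311) and 0.55 (adjusted p = 0.0103), and another probe of NUF2 rose in scrambled minus untreated, as given above. Their differences from untreated cells ranged up to 0.46 with the scrambled sequence and down to -0.41 with Y15. Of the 11 members with more than 1 probe, 10 of 13 further probes went the same way as the probe used with Y15, 12 of 13 in scrambled minus untreated and 8 of 13 in HAS3 siRNA minus scrambled.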

How the data were processed

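Total RNA of SW620 cells was hybridised to Illumina bead arrays, per the labels' protocols after conversion of 250 to 500 ng to biotin-labelled cRNA, and the 8 samples were grouped by their titles. The deposited table holds non-normalized bead intensity values on a linear scale, with a detection p-value for each, per the file headers. The submitters' processing notes name GenomeStudio, without version or settings. The authors' series matrix holds log2 values that equal the quantile-normalized log2 of those intensities, within 5e-09, with no centring found and a median of 5.86 on each array; it was used as an alternative.

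With limma 3.58.1 in R 4.3.3, background was corrected from the detection p-values (nec, offset 16), arrays were quantile-normalized, and probes detected at p under 0.05 on at least 2 of 8 arrays were kept (14631 of 24526). Of all probes 21834 carried 1 symbol, 21813 of them found in a RefSeq list, and 2692 were unnamed. The brightest probe stood for each gene. All 8 arrays entered 1 linear model of the 4 groups (lmFit, eBayes), with 4 residual and 11.8 total degrees of freedom. P-values were adjusted by Benjamini-Hochberg over 10856 genes. Values given for another probe of a gene come from the same model fitted to the 13239 kept probes with a name, and adjusted over those probes. All adjusted p-values in the text come from limma. The 2 arrays per group limit the precision. Alternatives were no or normexp background correction, median centring (over all or detected probes) or cyclic loess, other probe rules and detection filters, 4 arrays only, a replicate block, and each array left out.

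Members, gene lists and tests were chosen with earlier results of these data known. By the naming rule all members could be named; 10 were always given by array, and of other lists up to 4 genes of smallest p. The only rise or fall of a list (NDEL1, CDKN1A and RBL2 in scrambled minus untreated, FAM83D with HAS3 siRNA) was named after its value was seen. Promoters were searched on 2 strands in RefSeq windows.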

Additional observations from a re-analysis of the deposited data

Results flagged for a closer look

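The Y15 effect (minus untreated) and the HAS3 siRNA effect (minus scrambled) differed for 16 members when the difference was tested across all arrays by limma. That was 31.4% of the members, a share near the 30.8% of all genes. The Y15 effect was the lower for CENPF (-1.45), CENPE (-1.15), CCNB1 (-0.98), AURKA (-0.86), CENPA (-0.84), KIF18A (-0.84), ASPM (-0.83), TOP2A (-0.74), KIF20A (-0.73) and PRC1 (-0.72), all on the log2 scale. It was the higher for CENPN (1.12), ANLN (1.0), SPC25 (0.99), INCENP (0.71), CDK1 (0.63) and CDC20 (0.55). For AURKA and CDK1 another probe gave -0.49 (adjusted p = 0.0856) and 0.36 (adjusted p = 0.229) and did not pass. For BIRC5 the probe used did not pass, but another probe passed with the Y15 effect the lower (adjusted p = 0.0226). No group was large enough to be searched for a sample far from the others.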

How the results depend on the processing

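Of the members called, 9 of 20 with Y15, 4 of 30 in scrambled minus untreated, 3 of 16 in the difference of effects and 7 of 28 in HAS3 siRNA minus untreated passed under every alternative and with every array left out. Median centring over all probes gave, with Y15, 0 higher and 31 lower; in scrambled minus untreated 4 higher; in the difference of effects 0 higher and 24 lower; and in HAS3 siRNA minus untreated 7 higher. Centring over the detected probes, chosen after seeing the data, gave 5 lower in the difference of effects. A fit of 4 arrays gave 3 higher with Y15. HAS3 siRNA minus scrambled had 1 lower without background correction and in the series matrix values, and 2 lower with normexp and with 4 arrays; 0 were higher in every setting. With each array left out the counts were 3 to 4 higher and 12 to 16 lower with Y15, 0 and 0 in HAS3 siRNA minus scrambled, 13 to 36 higher in scrambled minus untreated, 2 to 5 higher and 6 to 12 lower in the difference of effects, and 14 to 31 higher in HAS3 siRNA minus untreated; the cause was not tested, and fewer arrays enter these fits.

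Signs changed under median centring for CDK1 (-0.216), INCENP (-0.110) and PLK4 (-0.0790) with Y15, for AURKA (0.0606) and PLK1 (0.111) with HAS3 siRNA and for PLK1 (-0.00324) in scrambled minus untreated. CCNB1 with HAS3 siRNA was -0.00540 by cyclic loess and AURKB -0.0795 by centring over detected probes. With 1 array left out the sign changed within these ranges: MKI67 with Y15 from -0.475 to 0.0880; with HAS3 siRNA AURKA from -0.146 to 0.0356, AURKB from -0.00928 to 0.0446, CCNB1 from -0.361 to 0.422 and PLK1 from -0.184 to 0.0213; and CCNB1 in scrambled minus untreated from -0.0639 to 0.719. Of these only INCENP and PLK4 with Y15 had been called.

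Replicate numbers were not shown to pair the samples: deviations of same-numbered arrays correlated at -0.07 to 0.27 over 6 pairs of groups. With the replicate number as a block, 6 members rose and 15 fell with Y15, 0 and 0 passed with HAS3 siRNA, 33 rose in scrambled minus untreated, 6 were higher and 10 lower in the difference of effects, and 31 rose in HAS3 siRNA minus untreated. A chip block was not run, since no chip is named in the files.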
